A study of Homo sapiens with 10 samples.

Results

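The sites of RNA polymerase II were set against those of the promoter mark H3K4me3 in HCT116, a long-used cell line from a human colorectal carcinoma. POLR2A, the catalytic and largest subunit of that enzyme, and H3K4me3, histone H3 trimethylated on lysine 4, were each mapped by CUT&Tag, in which an antibody directs a transposase to cut and tag the DNA beside its target. All peaks on chromosomes 1 to 22 and X were taken from both deposited lists, 19997 for POLR2A and 17181 for H3K4me3. These make up 37178 of the 57404 peaks in the 4 lists of the series, the other lists being for POLR1A, the catalytic subunit of RNA polymerase I, and H3K9me3, a mark of heterochromatin. The POLR2A group had 3 samples and the H3K4me3 group 1 sample. Every sample is labelled as wild-type HCT116 with no treatment named, and the labels of the groups differ in the antibody only. The 3 POLR2A samples share 1 list, so the peak lists give no value per replicate. Differences are therefore described without a test, and the 95% intervals (exact binomial for shares, order statistics for medians) cover counting error only. Read depth is unknown from peak lists, and RNA was not measured, so "active promoter" here means a gene start marked by H3K4me3.

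RNA polymerase II is assembled with general transcription factors in the nucleosome-poor stretch at a promoter, starts transcription, and often pauses a short way downstream before it is released into elongation. H3K4me3 is written by the SETD1 and KMT2 methyltransferase complexes on the nucleosomes that border that stretch, and it is a standard mark of promoters in human cells. A histone mark can be present only where nucleosomes are, while the polymerase can be found between them.

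The arrangement can be read at 6 promoters, printed as the 250 bases that precede the start, from the RefSeq table of GRCh38.p14, the same assembly as the files. PARK7 (chr1:7961461-7961710, plus strand) is shown as a promoter where the polymerase and the mark coincide. VPS4A (chr16:69311100-69311349, plus strand), GNPTAB (chr12:101830960-101831209, minus strand) and AKIRIN1 (chr1:38991026-38991275, plus strand) had a POLR2A peak over the printed bases and H3K4me3 only beyond them. B2M (chr15:44711267-44711516, plus strand) had a strong H3K4me3 peak next to the start and no POLR2A peak. LRIG1 (chr3:66501122-66501371, minus strand) had POLR2A and no H3K4me3. Capitals mark CCAAT boxes (CCAAT or its reverse complement ATTGG) and GC boxes (GGGCGG or its reverse complement CCGCCC).
PARK7: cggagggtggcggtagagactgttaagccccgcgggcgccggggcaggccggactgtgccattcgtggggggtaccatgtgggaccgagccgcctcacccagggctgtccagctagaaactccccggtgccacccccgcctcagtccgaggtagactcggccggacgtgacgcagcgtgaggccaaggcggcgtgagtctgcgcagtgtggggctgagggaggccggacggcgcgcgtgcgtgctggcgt
VPS4A: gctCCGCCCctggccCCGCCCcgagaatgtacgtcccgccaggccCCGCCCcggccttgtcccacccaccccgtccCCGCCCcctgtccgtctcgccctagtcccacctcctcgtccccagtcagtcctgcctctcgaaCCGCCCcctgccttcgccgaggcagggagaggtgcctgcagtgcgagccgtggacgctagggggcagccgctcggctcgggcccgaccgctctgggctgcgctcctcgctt
GNPTAB: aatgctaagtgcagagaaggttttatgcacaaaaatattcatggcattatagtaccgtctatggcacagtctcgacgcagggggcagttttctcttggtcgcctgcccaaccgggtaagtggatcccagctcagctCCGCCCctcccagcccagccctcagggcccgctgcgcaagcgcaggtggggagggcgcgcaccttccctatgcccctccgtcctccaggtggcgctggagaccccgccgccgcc
AKIRIN1: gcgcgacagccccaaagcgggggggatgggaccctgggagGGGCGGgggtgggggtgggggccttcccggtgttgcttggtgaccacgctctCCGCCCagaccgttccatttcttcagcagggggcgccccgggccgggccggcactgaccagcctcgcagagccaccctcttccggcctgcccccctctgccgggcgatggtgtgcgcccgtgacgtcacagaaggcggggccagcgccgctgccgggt
B2M: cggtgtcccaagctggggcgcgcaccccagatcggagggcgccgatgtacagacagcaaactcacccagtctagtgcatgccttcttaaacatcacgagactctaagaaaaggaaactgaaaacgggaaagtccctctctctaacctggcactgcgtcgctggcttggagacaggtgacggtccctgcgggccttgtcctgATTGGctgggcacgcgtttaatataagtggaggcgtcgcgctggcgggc
LRIG1: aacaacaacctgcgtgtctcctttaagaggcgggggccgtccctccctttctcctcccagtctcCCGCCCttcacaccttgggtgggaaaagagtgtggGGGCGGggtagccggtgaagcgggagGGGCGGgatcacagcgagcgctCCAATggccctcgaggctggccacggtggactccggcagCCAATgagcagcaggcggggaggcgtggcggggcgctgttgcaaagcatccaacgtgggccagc
All 250 bases at PARK7 lay within both a POLR2A peak and an H3K4me3 peak. At VPS4A, 229 of these bases lay within a POLR2A peak and 0 within an H3K4me3 peak. GNPTAB had 202 bases under POLR2A and AKIRIN1 had 197, again with 0 under H3K4me3. None of the 6 held TATAAA or GGAAGTG on either strand, and GC boxes numbered 5 at VPS4A, 3 at LRIG1, 2 at AKIRIN1 and 1 at GNPTAB. Over 22012 protein-coding starts, 53.7% of such 250-base windows hold a GC box, 32.7% a CCAAT box, 9.02% TATAAA and 10.2% GGAAGTG. A match of letters is a description and no evidence of a bound factor.

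The first question was where POLR2A summits, the single highest position of each peak, lie relative to H3K4me3 peaks. Of the 19997 POLR2A summits, 9476 (47.4%, 95% interval 46.7 to 48.1) lay inside an H3K4me3 peak. With only peaks of -log10 q of at least 5 in both lists it was 72.4% of 9608 (71.5 to 73.3). In the full lists a further 1122 (5.61%) lay at a flank, meaning 1 to 1000 bp outside the nearest edge. Another 672 (3.36%) lay 1 to 5 kb away, 4838 (24.2%) lay 5 to 50 kb away, and 3889 (19.4%) lay more than 50 kb from any H3K4me3 peak. Set against the length of genome in each zone, summits numbered 633 per Mb inside H3K4me3 peaks, 36.9 per Mb at the flanks, 6.20 per Mb at 1 to 5 kb and 6.98 per Mb at 5 to 50 kb. Within the flank the density was 120 per Mb in the first 100 bp, 52.9 from there to 250 bp, 31.4 from 250 to 500 bp and 14.7 from 500 to 1000 bp. It was thus highest against the edge, and by 1500 to 2000 bp it stood at 6.13 per Mb, close to the value at 1 to 5 kb.

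POLR2A peaks inside the mark were also the stronger ones. Their fold enrichment, the linear ratio over background computed by the authors, had a median of 8.12, against 6.13 at the flanks, 4.95 at 1 to 5 kb, 3.71 at 5 to 50 kb and 3.63 farther out. Their median width was 331 bp, against 230 bp at the flanks and 193 bp beyond 50 kb. POLR1A peaks overlapped 24.2% of POLR2A peaks inside H3K4me3, 8.29% of those at flanks and 3.08% of those at 5 to 50 kb. H3K9me3 peaks overlapped 3.74% of the inside POLR2A peaks and 4.63% of those beyond 50 kb. The share inside differed between chromosomes, with 60.4% on chromosome 19 at the high end and 34.8% on chromosome 21 at the low end. Some flank peaks were cut by the edge of the mark, and somewhat more lay apart from it. Of the 1122, 530 (47.2%) still overlapped the H3K4me3 peak with part of their length, and 124 (11.1%) had an H3K4me3 peak within 1 kb on both sides.

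Within the mark, position over all peaks was close to even when strand was ignored. With each H3K4me3 peak cut into 10 slices of equal length, every slice held between 8.57% and 10.6% of inside POLR2A summits, and the central 50% of the width held 51.6% (50.6 to 52.6). That central share was 43.6% (41.7 to 45.5) in H3K4me3 peaks of 800 to under 1200 bp and 62.9% (60.3 to 65.4) in those of 1600 bp and over. The median distance from the POLR2A summit to the H3K4me3 summit was 148 bp and to the nearer edge 220 bp. Strand changed this picture. In H3K4me3 peaks whose gene starts all point in 1 direction, 3246 of 4395 inside POLR2A summits (73.9%, 72.5 to 75.2) lay in the upstream 50% of the peak. By slice, the shares were 17.9%, 18.3% and 16.0% in the 3 slices farthest upstream and 4.91%, 4.05% and 3.64% in the 3 farthest downstream.

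The measurement was then anchored on the gene start itself, at the 5814 H3K4me3 peaks within 1 kb of exactly 1 protein-coding start and of no other start in the table. Of these, 3215 overlapped a POLR2A peak and 2599 did not. The 3210 POLR2A summits inside them had a median position 81 bp upstream of the start (position -81, interval -86 to -77), with the middle 50% between -156 and 2. Upstream summits made up 74.5% of them, and 75.1% lay within 250 bp of the start. H3K4me3 summits lay on the other side, at a median of 104 bp downstream where POLR2A was present and 415 bp downstream where it was not. The 376 flank POLR2A summits at such peaks had a median position of -152, and 79.3% (74.8 to 83.2) lay on the upstream side of the H3K4me3 peak.

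**Figure D1:**
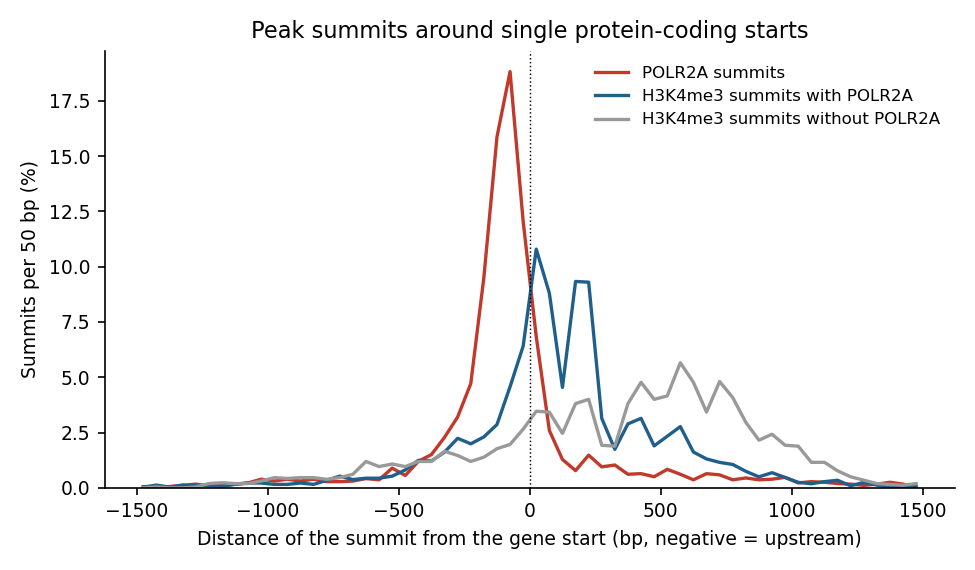
Share of summits in each 50 bp step (vertical axis, %) by distance from single protein-coding starts (horizontal axis, bp, negative upstream), for POLR2A summits inside or at the flank of H3K4me3 peaks and for H3K4me3 summits of peaks with and without POLR2A. The POLR2A line peaks just upstream of the start, and the H3K4me3 summits without POLR2A are spread around their median of 415 bp downstream.

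The difference between H3K4me3 peaks that overlapped POLR2A and those that did not lay mainly on the upstream side. POLR2A summits sat mostly just upstream of the start, so a mark that reaches there is more likely to overlap one. How much of the difference comes from this grouping by overlap was not tested. H3K4me3 peaks with POLR2A reached a median of 325 bp upstream of the start (312 to 336), against 16 bp (-9 to 35) for those without. Downstream the order was the other way, with a median reach of 751 bp for peaks with POLR2A and 837 bp for peaks without. The start base itself lay under the mark in 85.9% of peaks with POLR2A and in 36.8% of peaks lacking it. Peaks lying wholly downstream of the start made up 5.94% of the POLR2A-bearing peaks and 48.7% of the others. In 189 H3K4me3 peaks that had POLR2A at a flank and none overlapping, the mark typically began 198 bp downstream of the start and had its summit at 566 bp.

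**Figure D2:**
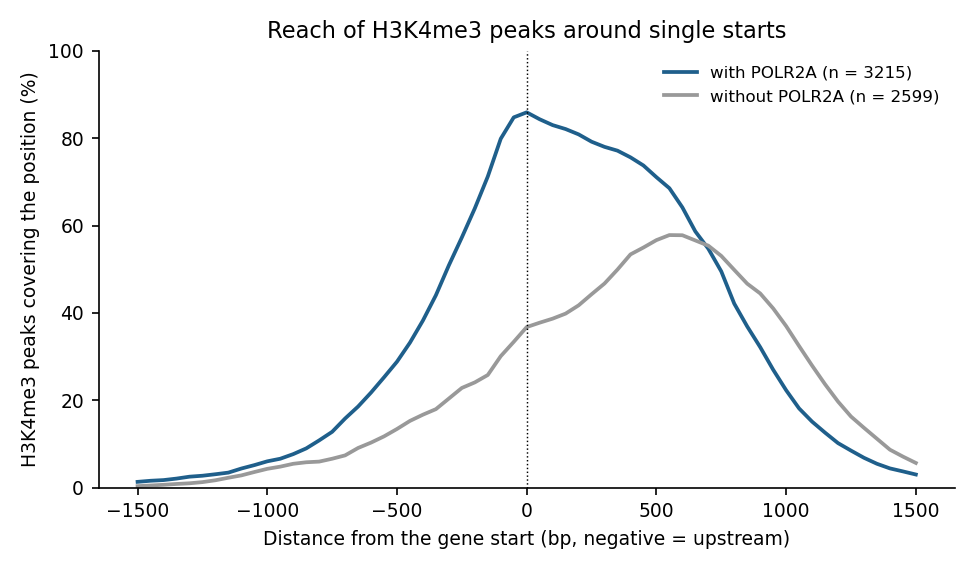
Share of H3K4me3 peaks that cover each position (vertical axis, %) by distance from single protein-coding starts (horizontal axis, bp), for 3215 peaks with POLR2A and 2599 without. At the start, 85.9% of peaks with POLR2A and 36.8% of peaks lacking it cover the position, and the lines cross downstream.

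A wide peak, or one that reaches over the start, offers more room for an overlap. The comparison was therefore repeated with a POLR2A window that does not depend on the mark. The 5814 peaks belong to 5050 starts, 745 of them with more than 1 H3K4me3 peak, and a start was counted once as having POLR2A if a summit lay within 250 bp of it. Among 3718 starts covered by H3K4me3, 2384 had POLR2A (64.1%, 62.6 to 65.7). Among 786 starts with H3K4me3 downstream only, 186 did (23.7%, 20.7 to 26.8). Starts with H3K4me3 upstream only had POLR2A in 36 of 216 cases (16.7%), and starts with the mark on both sides but not on the start in 95 of 330 (28.8%). Of the starts without POLR2A by this count, 1334 were covered by the mark and 600 had it downstream only. A further 180 had it upstream only and 235 on both sides. Counted by start, most of those without POLR2A were thus covered, unlike the peaks without POLR2A above. The share was higher at covered starts on 22 of 22 chromosomes with starts in the table.

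The gap between covered and downstream-only starts was present at every level of 3 properties that also differed between them. With H3K4me3 fold enrichment cut into 4 equal classes, POLR2A was at 45.9% of covered starts and 19.1% of downstream-only starts in the lowest class, and at 77.2% of covered and 36.0% of downstream-only starts in the highest. In the narrowest class of H3K4me3 width the shares were 52.9% at covered starts and 23.4% at downstream-only starts, and in the widest class 66.8% at covered and 17.9% at downstream-only starts. In the lowest class of the CpG ratio (observed over expected CpG in the promoter) they were 56.2% at covered and 16.0% at downstream-only starts, and in the highest 68.8% at covered and 24.9% at downstream-only starts. Covered starts had a median promoter GC content of 65%, against 75% at downstream-only starts. The part of GC content in the difference was not tested.

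**Figure D3:**
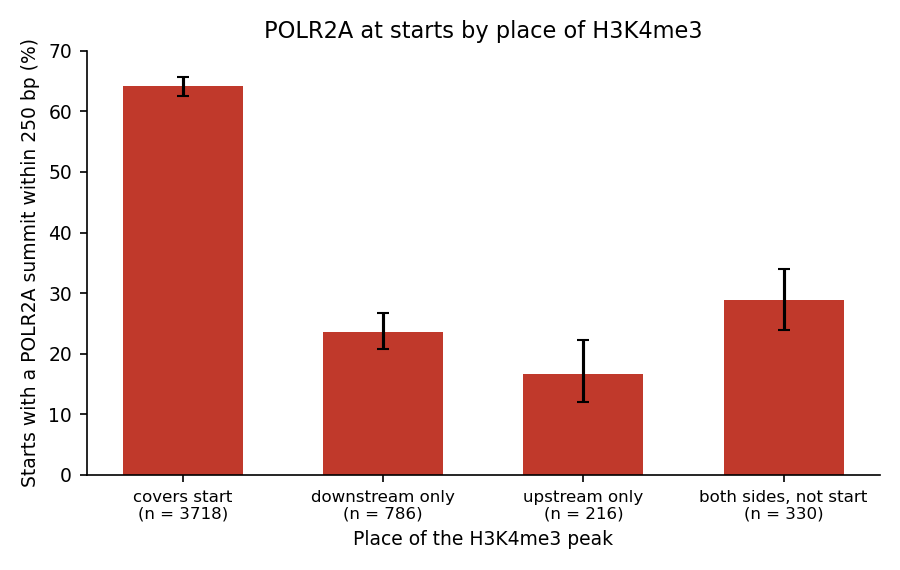
Share of starts with a POLR2A summit within 250 bp (vertical axis, %) by where the H3K4me3 peak lies (horizontal axis), with exact 95% binomial intervals for counting error. Covered starts stand at 64.1%, and the other 3 classes lie between 16.7% and 28.8%.

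Individual genes showed each arrangement. The highest POLR2A fold enrichment inside a mark at a start was 34.5, at BRD3OS on chromosome 9, where POLR2A and H3K4me3 summits were 2 bp apart and 187 and 189 bp upstream of the start. PARK7, which encodes the redox-sensitive protein DJ-1, had a POLR2A fold enrichment of 31.1, and its POLR2A and H3K4me3 summits coincided at -152. At TRIM37, a ubiquitin ligase, the POLR2A summit (28.4-fold) was at -131 and the H3K4me3 summit at 537. The other high ones were JPT1 at 28.2, the shared promoter of NUP98, a nuclear pore protein, and PGAP2 at 28.0, OGA, the enzyme that removes O-GlcNAc, at 26.0, and INTS6, an Integrator subunit, at 25.9. POLR2A lay upstream of the start in 6 of these 7 peaks, the exception being NUP98 and PGAP2, where it was 24 bp inside PGAP2. A POLR1A peak was also present at 5 of the 7, against 24.2% of all POLR2A peaks inside the mark. OGA had an H3K9me3 peak as well, against 3.74% of the inside peaks. The 7 were picked for the highest POLR2A fold enrichment.

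The strongest flank peaks at gene starts had the polymerase at the start and the mark set back into the gene. VPS4A, an ATPase of membrane scission, had the strongest, with 22.9-fold POLR2A at -124, which was 462 bp outside an H3K4me3 peak of 701 bp whose summit was at 563. PHC2, a Polycomb subunit, had 21.1-fold POLR2A at -78 and its H3K4me3 summit at 744. GNPTAB, which tags lysosomal enzymes with mannose phosphate, had 18.7-fold POLR2A at -68 and H3K4me3 at 444. AKIRIN1 had 18.2-fold POLR2A at -78 and H3K4me3 at 591, and SLC25A33, a mitochondrial nucleotide carrier, had 18.0-fold POLR2A at -148 and H3K4me3 at 720. In each of these 5 the POLR2A summit was upstream and the H3K4me3 summit downstream of the start. The sixth, the promoter shared by TAOK2 and LOC124903762, had 21.6-fold POLR2A only 51 bp outside the mark. Over all 376 flank summits at single starts, 64.4% (59.3 to 69.2) lay within 250 bp of the start.

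The second question was how many POLR2A peaks an H3K4me3 peak holds. Of 17181 H3K4me3 peaks, 9564 (55.7%, 54.9 to 56.4) overlapped at least 1 POLR2A peak. Exactly 1 was found in 9107 (53.0%), 2 in 447 (2.60%), 3 in 10 (0.0582%) and 0 in 7617 (44.3%). Of the marked peaks with the polymerase, 457 (4.78%) thus held more than 1. That share was 2.05% with only peaks of -log10 q of at least 5 and 1.18% with POLR2A peaks within 500 bp merged. The summits of neighbouring POLR2A peaks in the 457 were a median of 611 bp apart (middle 50%, 456 to 812). In 238 of the 457 (52.1%) the POLR2A summits lay on both sides of the H3K4me3 summit. Starts in the table that point in both directions were present in 24.9% of peaks with more than 1 POLR2A peak, 20.2% of those with 1 and 13.1% of those with 0. The 10 peaks with 3 POLR2A peaks included those at the histone genes H2BC21, H2AC20 and H2AC21 on chromosome 1, at ERBB3, a receptor tyrosine kinase, and at PYGL, a glycogen phosphorylase. At ERBB3 the 3 POLR2A peaks had fold enrichments of 4.15, 6.46 and 4.01 within an H3K4me3 peak of 2018 bp. Histone genes are near-identical copies, so values there are uncertain.

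Wider peaks more often held the polymerase, but held fewer POLR2A peaks per length. The share with POLR2A was 35.1% in H3K4me3 peaks under 400 bp, 43.6% from 400 bp, 62.3% from 800 bp, 76.6% from 1200 bp and 86.6% from 1600 bp upward. POLR2A peaks per kb of mark over the same classes were 1.17, 0.751, 0.654, 0.595 and 0.522. These count any shared base, so the length of the POLR2A peak itself adds most to the target of a narrow mark. By summits inside the mark the contrast was smaller, with 966 in 0.997 Mb under 400 bp and 1404 in 2.72 Mb from 1600 bp upward. The median fold enrichment of POLR2A peaks inside H3K4me3 peaks was higher in wide marks, at 9.43 from 1600 bp upward and 6.88 under 400 bp. The share of POLR2A-bearing peaks with more than 1 POLR2A peak went from 0.172% in the narrowest class to 13.1% in the widest. A fixed window gave a flatter relation, since a POLR2A summit within 250 bp of the H3K4me3 summit was found at 33.5% of the narrowest peaks and 45.0% of the widest. By H3K4me3 fold enrichment in 4 equal classes, the share overlapping POLR2A was 35.5%, 51.0%, 62.1% and 74.1% from lowest to highest.

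The third comparison was the width of H3K4me3 with and without POLR2A. Peaks with POLR2A had a median width of 1001 bp (988 to 1013, n = 9564) and those without 599 bp (587 to 613, n = 7617), a log2 ratio of 0.74. Their median H3K4me3 fold enrichments were 10.4 with POLR2A and 7.37 without. The peaks with POLR2A were wider on 23 of 23 chromosomes. Within the 4 classes of fold enrichment the log2 ratios were 0.19, 0.51, 0.59 and 0.27, and in the lowest class fold enrichment itself still differed, with medians of 4.80 with POLR2A and 4.49 without. At protein-coding starts the medians were 1137 bp with POLR2A and 709 bp without, and in peaks where the table has no such start they were 678 bp with and 473 bp without. With POLR2A defined by a summit within 250 bp of the H3K4me3 summit, a window of 1 size for every peak, the medians were 871 bp with and 763 bp without, and the log2 ratio 0.19. On the log2 scale the ratio by overlap is therefore several times that by the fixed window. That window misses POLR2A far from the H3K4me3 summit, which counts some wide peaks with POLR2A as without. It takes in 99.4% of inside POLR2A summits in H3K4me3 peaks under 400 bp and 46.3% from 1600 bp upward. How much of the ratio by overlap is the larger target of a wide peak was not tested.

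**Figure D4:**
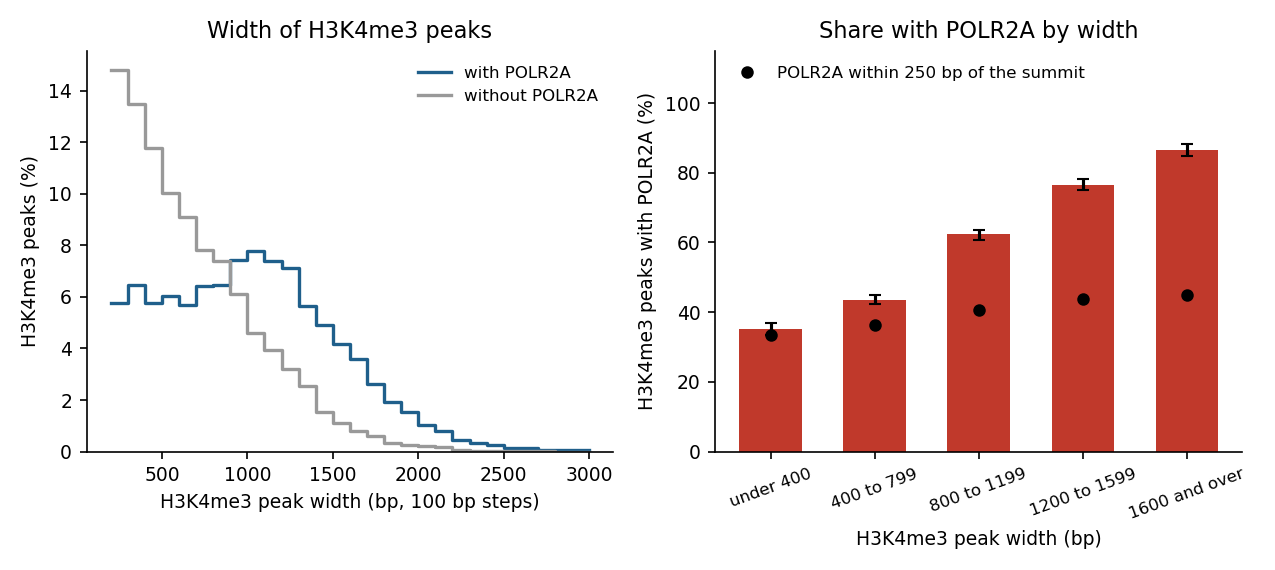
Left, distribution of H3K4me3 peak widths (horizontal axis, bp, in steps of 100) for peaks with and without POLR2A, as a share of each group. Right, share of H3K4me3 peaks overlapping POLR2A by width class (bars, exact 95% intervals for counting error) and share with a POLR2A summit within 250 bp of the H3K4me3 summit (points). The bars run from 35.1% to 86.6% and the points from 33.5% to 45.0%.

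Other readouts differed between these groups as well. POLR1A peaks overlapped 24.8% of H3K4me3 peaks with POLR2A and 1.68% of peaks lacking it, and H3K9me3 peaks overlapped 3.86% with and 0.486% without. The peaks with POLR2A are the larger target, at median widths of 1001 bp with and 599 bp without. The part of width in these overlaps was not tested. Of the 7617 H3K4me3 peaks that no POLR2A peak overlapped, 1759 (23.1%) had one within 1 kb. Where both were present, the strength of one said little about the other. Across 9564 H3K4me3 peaks the Spearman correlation of POLR2A fold enrichment with H3K4me3 fold enrichment was 0.13 and with H3K4me3 width 0.26. These are descriptions over peaks that share libraries, and carry no p.

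H3K4me3 peaks at starts with no POLR2A within 1 kb were named by width and by height. Among the widest were a peak of 2684 bp between HECTD3 and UROD, a heme synthesis gene, one of 2334 bp at MTCH1 and one of 2263 bp between IDH3G and SSR4 on chromosome X. Among the highest, B2M, the light chain of MHC class I, had an H3K4me3 fold enrichment of 32.3 in a peak of 596 bp with its summit 604 bp downstream of the start. RRN3, an initiation factor for RNA polymerase I, had 30.8, and MKRN3, an imprinted gene, had 30.7. CDK7, the kinase of TFIIH, had 28.7 in a peak with its summit at -11, so the mark sat on the start there. A peak at 32.2 between BOLA2B and SLX1A lies in duplicated sequence and is uncertain. In the reverse class, POLR2A without H3K4me3 reached 13.9-fold at TLE1, a corepressor, 13.5-fold at LPIN2, a phosphatidate phosphatase, and 12.3-fold at LRIG1, a negative regulator of ERBB receptors. KIF5C, a kinesin, had 12.1-fold POLR2A with the summit at -38.

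Counted by gene, 15812 of 19821 protein-coding genes had a start in the table, and a peak within 1 kb of it was counted. POLR2A was at 6961 genes (44% of 15812) and H3K4me3 at 9250 (58.5%). Both were at 6798 genes (43%), POLR2A alone at 163 (1.03%) and H3K4me3 alone at 2452 (15.5%). Of genes with POLR2A, 97.7% had H3K4me3, and of genes with H3K4me3, 73.5% (72.6 to 74.4) had POLR2A. The median POLR2A fold enrichment was 9.08 at the 6775 genes with both at the same start and 4.48 at the 163 with POLR2A alone.

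Gene groups were read against all 19821 protein-coding genes, of which 40.5% had both and 15.7% H3K4me3 alone, when gene ends stood in for starts missing from the table. Of 30 genes of pausing and elongation, 25 had both. They included CCNT2, a cyclin of the elongation kinase, at 20.2-fold POLR2A, and SUPT5H, a subunit of the pausing factor DSIF, at 12.9-fold, while NELFB, a subunit of the pausing factor NELF, had H3K4me3 alone. General transcription factors had both in 24 of 31 genes and immediate early genes in 21 of 26. In the immediate early group DUSP1, a phosphatase, had 15.7-fold POLR2A and JUN 13.9-fold, while FOS had H3K4me3 at 11.8-fold and no POLR2A peak. Of 18 genes of the H3K4 methyltransferase complexes 14 had both, led by CXXC1, the CpG-binding subunit of the SETD1 complexes, at 18.4-fold POLR2A. Of 17 demethylases and readers of the mark, 13 had both.

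Of 12 genes for polymerase II subunits 7 had both (58.3%, 27.7 to 84.8), with POLR2I at 16.9-fold and POLR2E at 13.4-fold POLR2A. POLR2B, POLR2C, POLR2F and POLR2L had H3K4me3 alone, at fold enrichments of 6.49, 14.9, 13.9 and 5.79, and the POLR2A gene had neither. In every class here, neither means only that no peak was listed. A 1 Mb stretch of chromosome 6 with 57 genes held 0 POLR2A and 2 H3K4me3 peaks, and the stretch before it, with 34 genes, held 0 of each. The 205 stretches with 21 to 63 genes held 22.5 POLR2A and 23.7 H3K4me3 peaks on average. Whether reads can be placed at the genes with neither was not tested. Developmental regulators had both in 10 of 52 genes, H3K4me3 alone in 13 and neither in 29. GATA6 and TBX3 were among those with both, at 8.09-fold and 17.1-fold POLR2A, and PAX6, FOXA1 and FOXC1 among those with H3K4me3 alone. Of 20 colon epithelial markers, 10 had both (50%, 27.2 to 72.8, an interval that holds the share over all genes), including EPCAM at 12.5-fold, SOX9 at 16.2-fold and CDX2 at 6.36-fold POLR2A. EHF had H3K4me3 alone, and the other 9, CLDN7, GPX2, MUC2, KRT20, CDX1, ASCL2, TFF3, VIL1 and LGR5, had neither. Markers of other cell types had both at 0 of 12 fibroblast genes, 1 of 13 leukocyte genes (CD8A), 2 of 10 neuronal genes (SYT1 and TUBB3) and 1 of 10 liver genes (APOA1).

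Promoter sequence, which the peak lists did not use, differed between these classes. Windows were 300 bases long, 250 before and 50 after the start, and motifs were sought on both strands. CCAAT was in 39.2% of 8507 starts with both (38.1 to 40.2), 40.0% of 240 with POLR2A alone, 24.8% of 3461 with H3K4me3 alone (23.3 to 26.2) and 34.1% of 9804 with neither, against 34.7% over all 22012. The GC box GGGCGG did not follow this order, at 74.4% with both, 46.3% with POLR2A alone, 74.7% with H3K4me3 alone and 34.3% with neither. TATAAA was in 4.50% of starts with both, 4.83% with H3K4me3 alone and 15.5% with neither. GGAAG, the core of ETS sites, was in 78.5% with both, 73.1% with H3K4me3 alone and 69.9% with neither. GGAAGTG, which contains it, was in 16.3%, 12.7% and 8.89% of the same classes. The median CpG ratio was 0.857 with both, 0.488 with POLR2A alone, 0.832 with H3K4me3 alone and 0.347 with neither, and median GC content was 65.7%, 61.0%, 69.3% and 55.0%. The CCAAT difference was also seen within covered and within downstream-only starts. At covered starts CCAAT was in 44.8% of those with a POLR2A summit within 250 bp and 29.9% of the others, and at downstream-only starts in 40.9% with such a summit and 23.2% without.

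The last comparison counted peaks along the genome in 3043 bins of 1 Mb. POLR2A and H3K4me3 counts went together, with a Spearman correlation of 0.92 and a Pearson correlation of 0.92 across bins. This is a description, since bins share gene density, library, depth and how well reads can be placed. Both targets were present in 2127 bins, POLR2A only in 210, H3K4me3 only in 49 and neither in 657. POLR2A peaks outnumbered H3K4me3 peaks in 1439 bins and were fewer in 590. That balance is for the full lists, of 19997 POLR2A and 17181 H3K4me3 peaks. At -log10 q of at least 5 the lists hold 9608 and 15479 peaks, and the bins were not recounted with these. Taken by position, POLR2A peaks inside the mark had a correlation of 0.94 with H3K4me3 counts, and those outside it 0.80.

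In the full lists, the balance shifted with gene density. Genes were counted here by the lower end of each of 19821 protein-coding genes, since the start table is incomplete. Per H3K4me3 peak there were 3.10 POLR2A peaks in bins with 0 genes (226 POLR2A and 73 H3K4me3 peaks), 1.48 in bins with 1 to 5, 1.25 with 6 to 10, 1.06 with 11 to 20 and 0.948 with 21 to 63. The share of POLR2A summits inside the mark over these classes was 15.9%, 35.7%, 44.7%, 51.1% and 60.5%. The densest bin for POLR2A was on chromosome 11 from 65000001 to 66000000, with 58 POLR2A and 66 H3K4me3 peaks. H3K4me3 was densest on chromosome 19 from 1000001 to 2000000, the region of POLR2E, GPX4 and STK11, where 49 POLR2A peaks faced 70 H3K4me3 peaks. The largest excess of POLR2A was on chromosome 12 from 124000001 to 125000000, which holds the lower end of 6 protein-coding genes and the starts of DHX37 and BRI3BP, with 32 POLR2A and 11 H3K4me3 peaks, 24 of the POLR2A peaks lying outside the mark. On chromosome 2 from 226000001 to 227000000, the region of IRS1, an insulin receptor substrate, there were 19 POLR2A and 3 H3K4me3 peaks. By chromosome in the full lists, the ratio of POLR2A to H3K4me3 peaks was highest on chromosome 21 at 1.40 and lowest on chromosome X at 0.948.

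**Figure D5:**
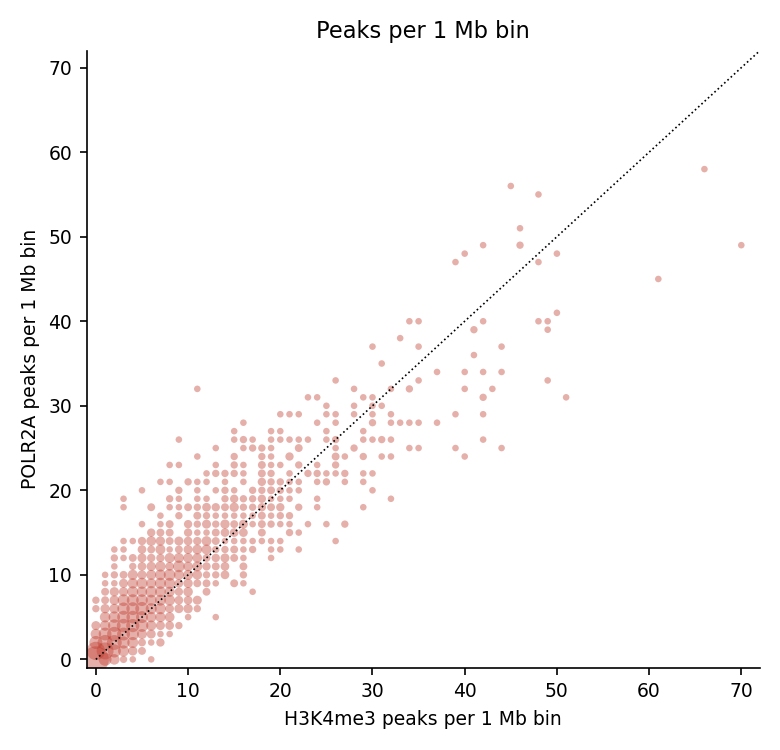
POLR2A peaks (vertical axis) against H3K4me3 peaks (horizontal axis) per 1 Mb bin, 3043 bins, with point size growing with the number of bins at a position and the dotted line marking equal counts. Above the line lie 1439 bins and below it 590, and the bin with 49 POLR2A peaks and 70 H3K4me3 peaks lies below it.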

How the data were processed

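CUT&Tag was made in HCT116 cells with antibodies to POLR2A (3 samples) and H3K4me3 (1 sample), and per the labels the replicates came from freshly thawed cells on separate days. The authors deposited 1 peak list per target in the layout of MACS2. The deposited lists give per peak a fold enrichment, which is a linear ratio, a -log10 q value (lowest just above 1), a score made from the q value, and the summit as an offset. How the caller was set, what control it used and whether POLR2A replicates were merged is not given in the sources used here. Builds and tools in the submitters' notes, without roles, are GRCh38 and hg38, FastQC 0.12.0, STAR, SAMtools 1.6 and deepTools 3.1.1. Fold enrichment was used only within its own list, and depth is unknown.

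Peaks overlapped if they shared a base. Gene starts and strands came from RefSeq tables of GRCh38.p14, in which chromosome 8 has no starts, and genes placed on scaffolds or patches were left out. Named genes were those with the highest POLR2A fold enrichment inside the mark (8 genes in 7 peaks), at flanks (6) or without the mark (6), with the most POLR2A peaks (6), and with the widest (6) and highest (6) H3K4me3 without POLR2A. Intervals are exact at 95%. The interval code was tested on simulated data. The members, gene lists and rules were chosen with earlier results of these data known, and the strand-anchored measures were added after seeing the data. Values were recomputed with stricter peaks, equal list lengths, other windows and merging. Python 3.11.15, NumPy 2.4.6, pandas 2.3.3 and SciPy 1.17.1 were used.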

Additional observations from a re-analysis of the deposited data

Results flagged for a closer look

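Peaks outside chromosomes 1 to 22 and X entered no comparison. The POLR2A list held 319 such peaks and the H3K4me3 list 266. They are signal outside the regions compared and are given here as counts only.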

How the results depend on the processing

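Of 56 alternative values 30 stayed within a range set around the reported value and 26 moved. For shares and the median position that range was the 95% interval, and for the bin correlation it was 0.01 either way. For the log2 width ratio, the gap between covered and downstream-only starts and the CCAAT difference it joined opposite 95% limits of the compared groups. Such a range is wider than a 95% interval of the difference. No width ratio or difference between classes changed sign. With only peaks of -log10 q of at least 5, 72.4% of POLR2A summits lay inside H3K4me3 and 5.96% at flanks, 45.7% of H3K4me3 peaks held POLR2A, 2.05% of those held more than 1, the log2 width ratio was 0.59, the bin correlation 0.91, 61.2% of genes with H3K4me3 had POLR2A, the gap between covered and downstream-only starts was 35.3 percentage points against 40.5, and the median POLR2A position was -90. With both lists cut to 17181 peaks, 54.6% of POLR2A summits lay inside and 6.35% at flanks. Flanks of 500 and 2000 bp gave 4.54% and 6.58%. Asking for 50% of the POLR2A peak inside left 52.5% of H3K4me3 peaks with POLR2A, and the summit window 38.8% with a log2 width ratio of 0.19. At protein-coding starts the 3 values were 58.4%, 5.27% with more than 1, and 0.68. Merging within 500 bp gave 1.18% with more than 1 for POLR2A peaks and 5.87% for H3K4me3 peaks. Bins of 500 kb, 5 Mb and only bins with a gene gave correlations of 0.88, 0.96 and 0.90. Gene windows of 500 bp and 2 kb gave 71.8% and 74.9%. Leaving out chromosome X moved no value. For the start gap, the median position and the CCAAT difference, whose alternatives were chosen after seeing the data, no other alternative moved one, and the other strand-anchored values were not rerun. The cause of each shift was not tested beyond what the setting itself changes. No paired analysis was possible because the POLR2A list holds no value per replicate and H3K4me3 has 1 sample; leaving out each replicate could not be run for the same reason.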
